A study of Triticum aestivum with 8 samples.

Results

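DMAS1 and TaPCS1 are genes of bread wheat (Triticum aestivum) whose enzymes make small molecules that bind metal ions. Both were measured on an Affymetrix array. The probe sets were chosen by name: every probe set that the platform annotation pairs, by symbol or synonym, with DMAS1 (LOC100037594) or TaPCS1 (LOC542834) was taken. That gave 4 of 61179 probe sets, 3 for DMAS1 (Ta.5335.1.A1_at, Ta.5335.1.A1_x_at and Ta.5335.3.S1_a_at, called its plain, _x_at and _a_at probe sets below) and 1 for TaPCS1 (Ta.232.1.S1_at). The arrays were hybridised with leaf RNA of the cultivars WL711 and C306, each either watered throughout (control) or without water from day 27 of age (drought). All plants were labelled as 48 days old, so that the drought plants had gone 21 days without water. Each of the 4 groups held 2 biological replicates, 8 arrays in all, and the labels do not say how many plants stand behind a replicate. C306 is known among breeders as drought tolerant and WL711 as drought susceptible.

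Grasses take up iron by releasing phytosiderophores of the mugineic acid family, which hold ferric iron in solution and carry it into the root. DMAS1 encodes deoxymugineic acid synthase, a reductase of the aldo-keto reductase family that makes deoxymugineic acid, the first member of that family, from an intermediate derived from nicotianamine. Nicotianamine is itself made from S-adenosylmethionine and binds iron, zinc and copper inside the plant, in leaves and phloem as well as in roots. TaPCS1 encodes phytochelatin synthase, which joins units of the tripeptide glutathione into phytochelatins, the peptides that bind cadmium and other metals for storage in the vacuole. The enzyme is switched on by metal ions, so that its transcript and its activity need not move together.

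Values are log2 signals that had been centred on the median of each probe set over the 8 arrays. A value of 0 is therefore the middle of a probe set's own arrays, and neither the transcript's level nor the rank of DMAS1 against TaPCS1 can be read from it. For the same reason the leaf markers on the array (rbcl, PsbO and PsbP) could not be read as present or absent. The arrays differed in their spread: WL711 control replicate 1 had an interquartile range of 0.48, where the other 7 had 0.22 to 0.30. Signal of the hybridisation controls was low on 3 arrays, at a mean of -0.87 on WL711 control replicate 1, -1.02 for the second C306 control and -0.95 for the first C306 drought array, against -0.018 to 0.13 elsewhere. Means of the poly-A controls were 0.54 and 0.47 for watered C306 but -0.052 and -0.039 for droughted C306, so they were lower on both drought arrays of that cultivar. In WL711 they were -0.65 and -0.11 on the control arrays and 0.23 and -0.35 on the drought arrays, with wide gaps between replicates of a group. Fits with a block for the low hybridisation controls, with array weights and without each array in turn were run. Where one changed a call of DMAS1 or TaPCS1, its value is given beside that call. The array weights came out equal for the 2 arrays of each group, so they could not lower the weight of a single array. The part of the poly-A controls in the results was not tested. In bulk leaf RNA, a change in the share of a cell type and a change in RNA per cell cannot be told apart.

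DMAS1 stood highest in droughted C306 leaves. On its plain probe set the C306 drought arrays read 0.85 and 0.87, the C306 control arrays -0.49 and 0.41, the WL711 drought arrays -0.089 and 0.076, and the WL711 control arrays -0.16 and -0.076 (centred log2, replicates 1 and 2). Both C306 drought arrays lay above the other 6, while the other 3 groups overlapped each other. The C306 control arrays were the widest pair, with a gap of 0.90 that takes in all 4 WL711 arrays.

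The second DMAS1 probe set, _x_at, carries the same design number as the plain one and an ending that Affymetrix gives to sets in which some probes also match other sequences. It read 0.62 and 0.92 on C306 drought, -0.084 and 0.21 on its watered controls, -0.016 and -0.31 on WL711 drought, and -0.28 and 0.016 on WL711 control. Its C306 drought arrays again lay above the other 6, and its C306 control arrays were closer to each other, with a gap of 0.29. The third, _a_at, comes from another design sequence. It read 0.36 and 0.29 on C306 drought, -0.11 and 0.28 on C306 control, -0.070 and -0.12 on WL711 drought, and -0.39 and 0.070 on WL711 control. Here the C306 drought arrays were also highest, but C306 control replicate 2, at 0.28, came close to the lower of them, at 0.29.

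TaPCS1 spanned a narrower range. The C306 drought arrays read 0.14 and 0.39, the C306 control arrays -0.24 and 0.058, the WL711 drought arrays -0.14 and -0.23, and the WL711 control arrays -0.058 and 0.12. C306 drought was highest here too, by a small margin over WL711 control replicate 2, and WL711 drought had the lowest mean. Thus on 4 of 4 probe sets both C306 drought arrays lay above the other 6, an ordering noticed in the data that 7.28% of all 61179 probe sets shared. The 3 DMAS1 probe sets report on the same gene, and the 4 probe sets were read on the same arrays, so they are not independent instances of it.

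**Figure D1:**
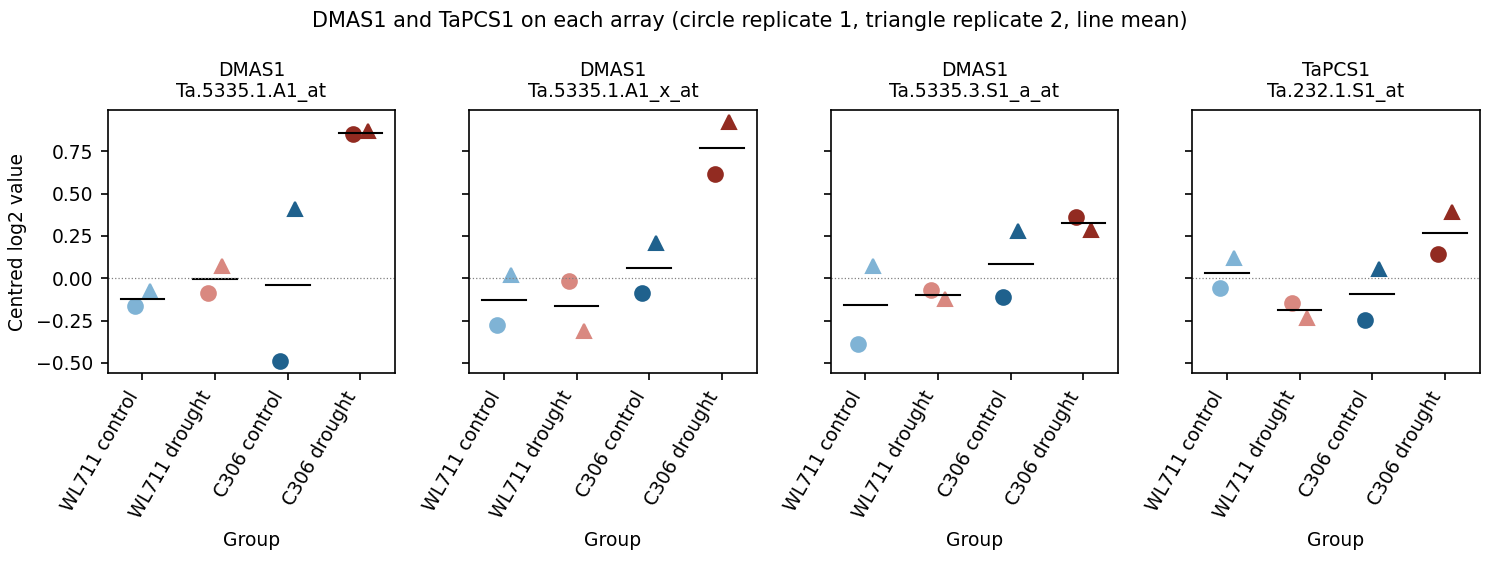
Centred log2 value (vertical axis) of the 3 DMAS1 probe sets and the TaPCS1 probe set on each of the 8 arrays, by group; circles are replicate 1, triangles replicate 2 and black lines the mean of 2 arrays. The C306 drought arrays are highest in all 4 panels, and the C306 control arrays of the plain DMAS1 probe set lie farthest apart, at -0.49 and 0.41.

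The first comparison asked whether drought changed the genes in C306. The plain DMAS1 probe set went from -0.039 ± 0.64 in control to 0.86 ± 0.01 in drought (SD, n = 2), a log2 change of 0.90 (SE 0.26, 95% interval 0.31 to 1.49), which did not pass (limma adjusted p = 0.359). The _x_at probe set went from 0.063 ± 0.21 to 0.77 ± 0.22, a change of 0.71 (SE 0.20, adjusted p = 0.340). The _a_at probe set read 0.24 (SE 0.20, adjusted p = 0.953). Of the 3 DMAS1 probe sets 0 passed the limma threshold, and 2 had an unadjusted p under 0.05. Over the whole array 0.049% of probe sets passed in this comparison and 7.73% had an unadjusted p under 0.05.

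TaPCS1 went from -0.093 ± 0.21 in C306 control to 0.26 ± 0.18 in C306 drought, a log2 change of 0.36 (SE 0.17, 95% interval -0.027 to 0.74), and did not pass (limma adjusted p = 0.704). Drought and control arrays of C306 did not overlap on any of the 4 probe sets, with drought above, as for 17.2% of all probe sets. Placed among all 61179 changes in C306, 1.52% were as high as that of the plain DMAS1 probe set, 2.31% as high as that of the _x_at probe set, 6.73% as high as that of TaPCS1 and 11.4% as high as that of the _a_at probe set.

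The size of the C306 change turned on the control arrays for the plain and _a_at probe sets of DMAS1. Without C306 control replicate 2, an array with low hybridisation controls, the plain probe set read 1.35 and passed, in a fit that kept only replicate 1 as C306 control. With all arrays and a block for low hybridisation controls it read 0.90 and did not pass (limma adjusted p = 0.326). That block could not move the estimate, because 1 control and 1 drought array of C306 had low hybridisation controls. Without C306 control replicate 1 the plain probe set read 0.45, the _a_at probe set 0.047 and TaPCS1 0.21. The _x_at probe set moved about as far with the drought arrays as with the control arrays. It read 0.56 and 0.85 without C306 control replicates 1 and 2, and 0.86 and 0.55 without C306 drought replicates 1 and 2.

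In WL711 the same comparison gave changes near 0 for DMAS1. The plain probe set went from -0.12 ± 0.062 to -0.0067 ± 0.12, a log2 change of 0.11 (SE 0.26, 95% interval -0.47 to 0.70). The other probe sets of DMAS1 read -0.035 (SE 0.20) and 0.063 (SE 0.20), and the drought and control arrays overlapped on all 3. Adjusted p ran from 0.877 to 0.954 (limma). Changes of the plain probe set in WL711 from -0.47 to 0.70 were therefore not excluded. That interval is not a limit of detection, since a change of 0.90 with an SE of 0.26 in C306 did not pass either.

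TaPCS1 in WL711 had an estimate below 0, going from 0.031 ± 0.13 in control to -0.19 ± 0.063 in drought, a log2 change of -0.22 (SE 0.17, 95% interval -0.60 to 0.17) that did not pass (limma adjusted p = 0.591). Both drought arrays lay below both control arrays, as for 22.4% of all probe sets. The order of TaPCS1 in the cultivars together, with drought above control in C306 and below it in WL711, was shared by 3.21% of all probe sets. Of the 4 probe sets, 0 passed in WL711 and 0 had an unadjusted p under 0.05, where 0.036% of all probe sets passed and 13.8% had an unadjusted p under 0.05.

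**Figure D2:**
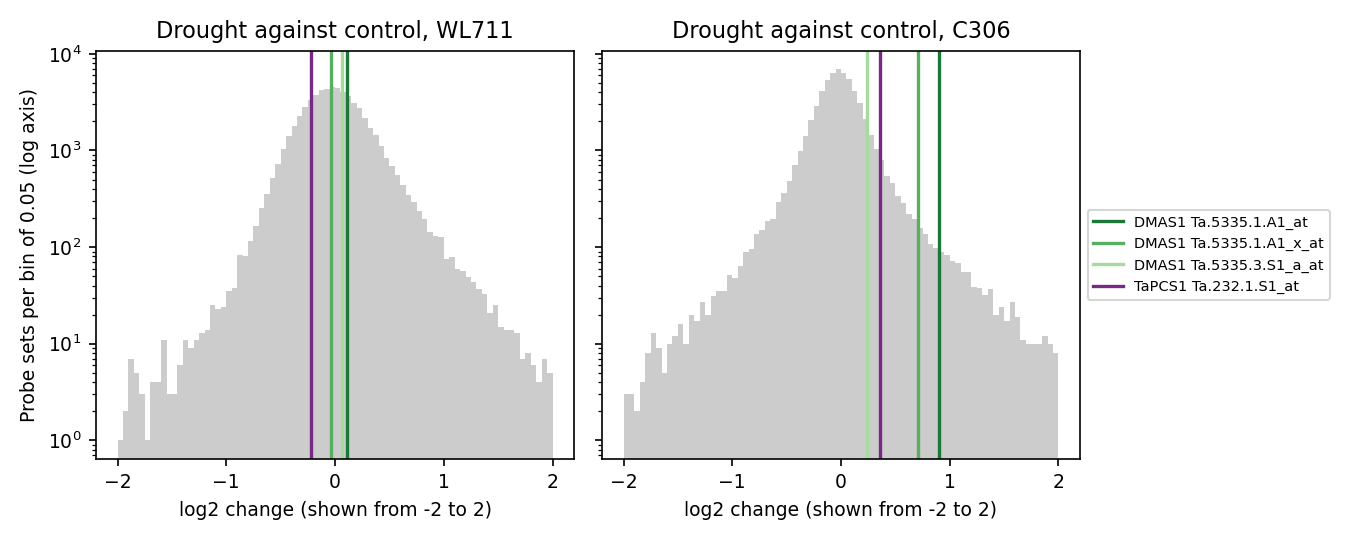
Number of probe sets per bin of 0.05 (vertical log axis) by log2 change with drought (horizontal axis, shown from -2 to 2) in WL711 and C306; coloured lines mark the 4 probe sets. In WL711 they lie near the middle of the distribution, between -0.22 and 0.11, and in C306 between 0.24 and 0.90, on its upper side.

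**Figure D3:**
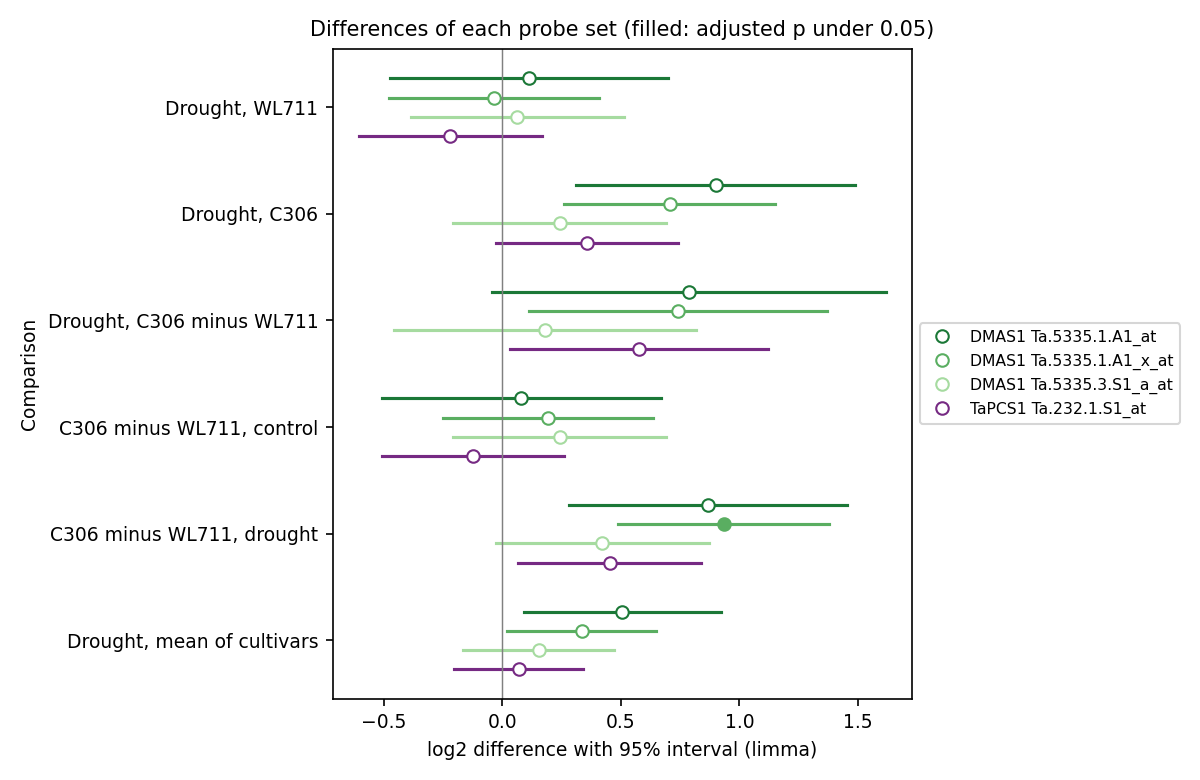
log2 difference of each probe set (horizontal axis, bars are limma 95% intervals) in the 6 comparisons (vertical axis); filled points have an adjusted p under 0.05. The only filled point is the _x_at probe set of DMAS1 in drought plants, higher in C306 by 0.93.

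The test of the drought effects against each other asked whether the cultivars responded alike. The change in C306 minus that in WL711 was 0.79 for the plain DMAS1 probe set (SE 0.37, 95% interval -0.045 to 1.62), 0.74 for the _x_at probe set (SE 0.28, interval 0.11 to 1.37), 0.18 for the _a_at probe set (SE 0.28) and 0.58 for TaPCS1 (SE 0.24, interval 0.033 to 1.12). None of the 4 passed (limma adjusted p 0.424 to 0.885), and 2, the _x_at probe set and TaPCS1, had an unadjusted p under 0.05. Over the array 0.0409% of probe sets passed and 9.79% had an unadjusted p under 0.05. The value of the plain DMAS1 probe set turned on the C306 control arrays here too, with 0.34 without replicate 1 (limma adjusted p = 0.79) and 1.24 without replicate 2 (adjusted p = 0.101). That of the _a_at probe set fell below 0 without C306 control replicate 1 (-0.016) or WL711 control replicate 2 (-0.050). A difference between cultivars in the drought response of either gene was therefore not shown.

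Averaged over both cultivars, the change with drought was 0.51 for the plain DMAS1 probe set (SE 0.18), 0.34 for the _x_at probe set (SE 0.14), 0.15 for the _a_at probe set (SE 0.14) and 0.069 for TaPCS1 (SE 0.12). Of these 0 passed (limma adjusted p 0.382 to 0.854), while the first and second had an unadjusted p under 0.05. Without C306 control replicate 1 the plain probe set read 0.28, and with single arrays left out the _a_at probe set ranged from 0.038, without WL711 control replicate 1, to 0.27, without WL711 control replicate 2. For TaPCS1 the average joins changes of opposite sign, and with single arrays left out it ranged from -0.006, without C306 control replicate 1, to 0.145, without C306 control replicate 2. Over the array 0.00817% of probe sets passed and 11.1% had an unadjusted p under 0.05.

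Cultivars were then compared under each watering. In control plants C306 minus WL711 read 0.080 (SE 0.26), 0.19 (SE 0.20) and 0.24 (SE 0.20) on the DMAS1 probe sets, in the order plain, _x_at and _a_at, and -0.12 (SE 0.17) on TaPCS1. The groups overlapped on all 4, and adjusted p ran from 0.451 to 0.864 (limma). None of the 4 passed or had an unadjusted p under 0.05, where 11.0% of all probe sets passed and 28.8% had an unadjusted p under 0.05.

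In drought plants DMAS1 was higher in C306 on the _x_at probe set, at 0.77 ± 0.22 against -0.16 ± 0.21 (SD, n = 2). The log2 difference of 0.93 (SE 0.20, 95% interval 0.49 to 1.38), 1.91-fold, passed (limma adjusted p = 0.0251). The plain probe set gave a difference of similar size, 0.87 (SE 0.26, interval 0.28 to 1.45), which did not pass (adjusted p = 0.0898). The _a_at probe set read 0.42 (SE 0.20, interval -0.029 to 0.87, adjusted p = 0.263). Thus 1 of 3 DMAS1 probe sets passed, in a comparison in which 6.73% of all probe sets passed and 4.2% passed as higher in C306.

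TaPCS1 in drought plants stood at 0.26 ± 0.18 in C306 and -0.19 ± 0.063 in WL711. The log2 difference of 0.45 (SE 0.17, 95% interval 0.068 to 0.84) had an unadjusted limma p of 0.0262 and did not pass (limma adjusted p = 0.165). Over the array 21.5% of probe sets had an unadjusted p under 0.05 in this comparison. C306 lay above WL711 on both arrays for all 4 probe sets, as for 23.6% of all probe sets. This comparison and that of drought with control in C306 share the C306 drought arrays, so their values are not separate evidence.

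The call for the _x_at probe set was lost when any of the 4 drought arrays was left out (limma adjusted p 0.0629 to 0.165, difference 0.78 to 1.09) and with a block for arrays with low hybridisation controls (adjusted p = 0.0542). The plain probe set passed in 4 of 17 alternatives: without either C306 control array (limma adjusted p = 0.0134 each), with only the 4 drought arrays fitted (0.0170) and with array weights (0.0397). In these 4 the difference stayed at 0.87, as none of them can move it. Leaving out a C306 control array, which takes no part in this comparison, lowered its SE from 0.26 to 0.15. The array weights, equal within each group, were highest for C306 drought (1.524) and lowest for WL711 control (0.569). With the 3 DMAS1 probe sets averaged, a step chosen after seeing the data, the difference was 0.74 and did not pass (adjusted p = 0.0619).

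**Figure D4:**
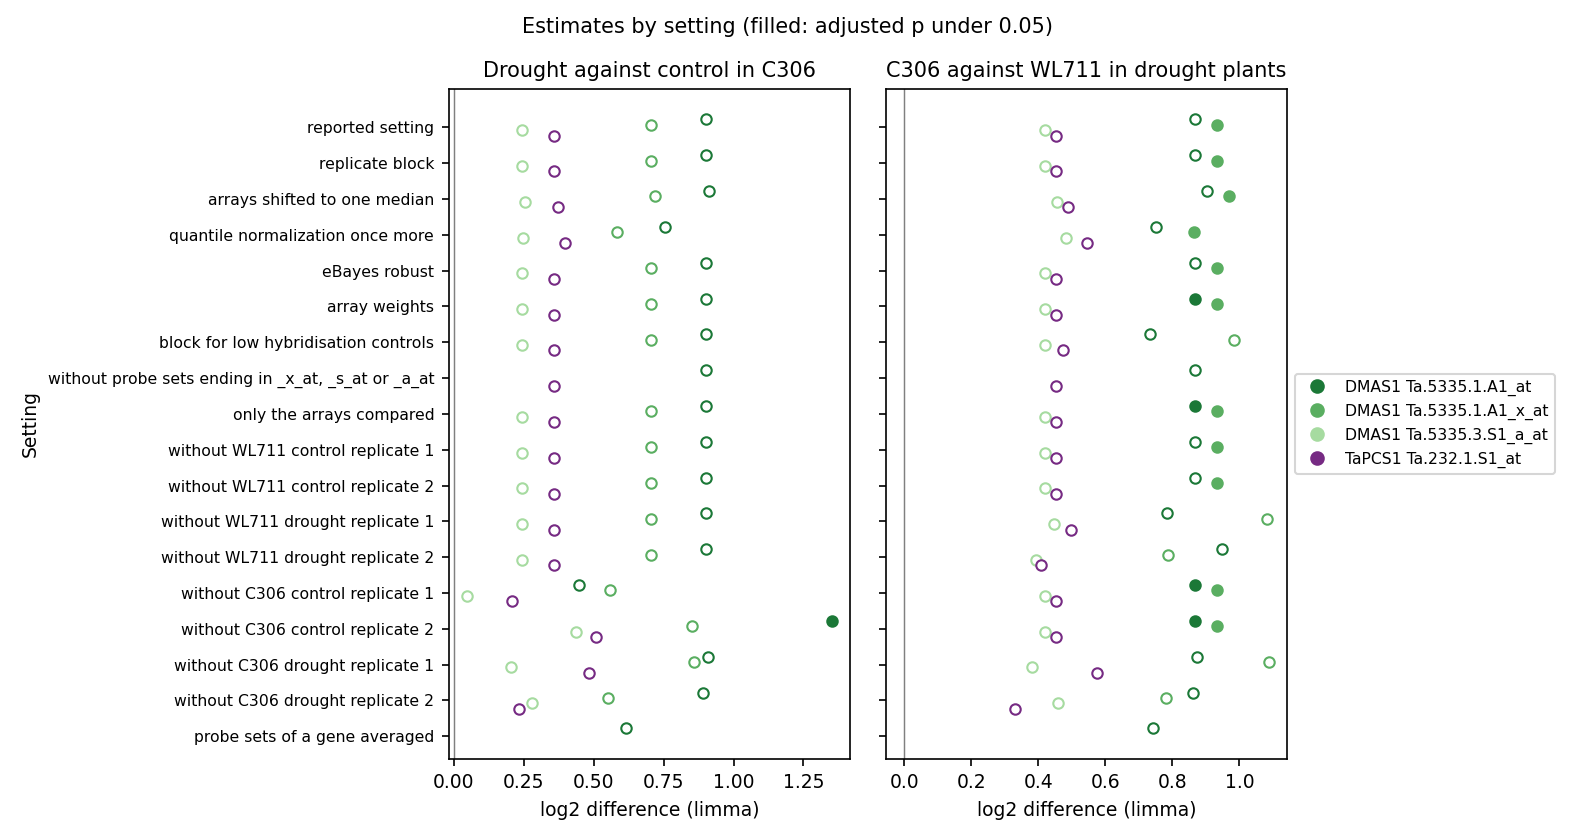
log2 difference (horizontal axes) of the 4 probe sets under each processing setting (vertical axis), for drought against control in C306 and for C306 against WL711 in drought plants; filled points have an adjusted p under 0.05. All estimates lie above 0, and in C306 the plain DMAS1 probe set spans 0.45 to 1.35, with both ends at settings that leave out a C306 control array.

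The probe sets of DMAS1 followed each other over the 8 arrays. Pearson's r between them was 0.82 to 0.86, and 0.70 to 0.82 after the mean of each cultivar had been taken off. TaPCS1 had an r of 0.80 with the plain DMAS1 probe set, 0.87 with the _x_at probe set and 0.70 with the _a_at probe set. With cultivar means removed these were 0.75, 0.89 and 0.64. These correlations describe 8 arrays in 4 groups that share cultivar, watering and hybridisation, and the plain and _x_at sets may share probes. The gene table lists DMAS1-A and DMAS1-B as synonyms of the DMAS1 record and gives DMAS1-D a record of its own, which the annotation pairs with 0 probe sets. Signal from the A, B and D copies of the hexaploid genome cannot be told apart here.

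Among 101 other named genes, those whose pattern over the 8 arrays was most like that of the plain DMAS1 probe set were APT1, for adenine phosphoribosyltransferase, with an r of 0.92, TaTPC1, for a calcium-permeable cation channel, with 0.81, TaPCS1 with 0.80, AGP-S, for the small subunit of ADP-glucose pyrophosphorylase, with 0.77, and the beta-glucosidase gene TaGlu1a with 0.69. For TaPCS1 they were cys1, for cysteine synthase, with 0.82, DMAS1 with 0.80, APT1 with 0.79, amy1 with 0.65 and la-17 with 0.62. The median r over the named genes was -0.24 for DMAS1 and -0.18 for TaPCS1. An r as high as that of the fifth gene was reached by 6.48% of all probe sets for DMAS1 and 4.79% for TaPCS1. TaPCS1 was the third of the named genes by likeness to DMAS1, and DMAS1 the second by likeness to TaPCS1.

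Genes matched as context for both pathways were few in the annotation. The wording of their lists was chosen with earlier results for some of them known. Of 3 lists matched on gene symbols and synonyms, that of the methionine cycle and phytosiderophore precursors held SAHH and APT1, that of glutathione, cysteine and sulphur supply held cys1, GSTZ1 and lgul, and that of metal transport and binding held TaALMT1. Not all of these genes supply a precursor: APT1 recycles adenine, GSTZ1 and lgul use glutathione, and TaALMT1 is a malate channel. Over these 6 genes 0 passed in either drought comparison (limma). On the probe set that stood for each gene, SAHH in WL711 and APT1 and cys1 in C306 had an unadjusted p under 0.05. So did the other probe sets of SAHH in WL711 and cys1 in C306, and that of lgul in C306, with a change of -0.52. Over all probe sets 13.8% had an unadjusted p under 0.05 in WL711 and 7.73% in C306. The median change was 0.049 in WL711 and -0.084 in C306, against -0.018 and -0.019 over all probe sets.

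APT1 encodes an enzyme that recycles free adenine. Its watered C306 arrays read -0.17 and 0.017 and its droughted ones 0.48 and 0.46, a log2 difference of 0.55 (SE 0.14) that did not pass (limma adjusted p = 0.301), and its change in WL711 was 0.018 (SE 0.14). SAHH, whose enzyme clears S-adenosylhomocysteine in the methionine cycle, had the opposite order, with 0.92 in WL711 (SE 0.28, adjusted p = 0.249) and -0.21 in C306 (SE 0.28). Its other probe set read 1.20 and -0.37. Neither gene passed in any of the 6 comparisons.

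On the glutathione side, cys1 makes the cysteine that enters glutathione. It read -0.33 with drought in WL711 (SE 0.26) and 0.61 in C306 (SE 0.26, limma adjusted p = 0.633), and its other probe set -0.35 and 0.62. GSTZ1, a glutathione transferase, read 0.080 and 0.046 with drought, and 0.18 and 0.41 on the highest of its 3 probe sets. The glyoxalase gene lgul, whose enzyme uses glutathione to remove methylglyoxal, was lower in C306 than in WL711 on both of its probe sets, by representative values of -1.39 in control plants (SE 0.29, adjusted p = 0.0210) and -2.05 in drought plants (SE 0.29, adjusted p = 0.00416). It was the only gene of the 6 to pass in any comparison. Over the array 11.0% of probe sets passed between cultivars in control plants and 6.73% in drought plants. TaALMT1, a malate channel of aluminium tolerance in roots, read -0.29 with drought in WL711 (SE 0.20) and -0.23 in C306 (SE 0.20).

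**Figure D5:**
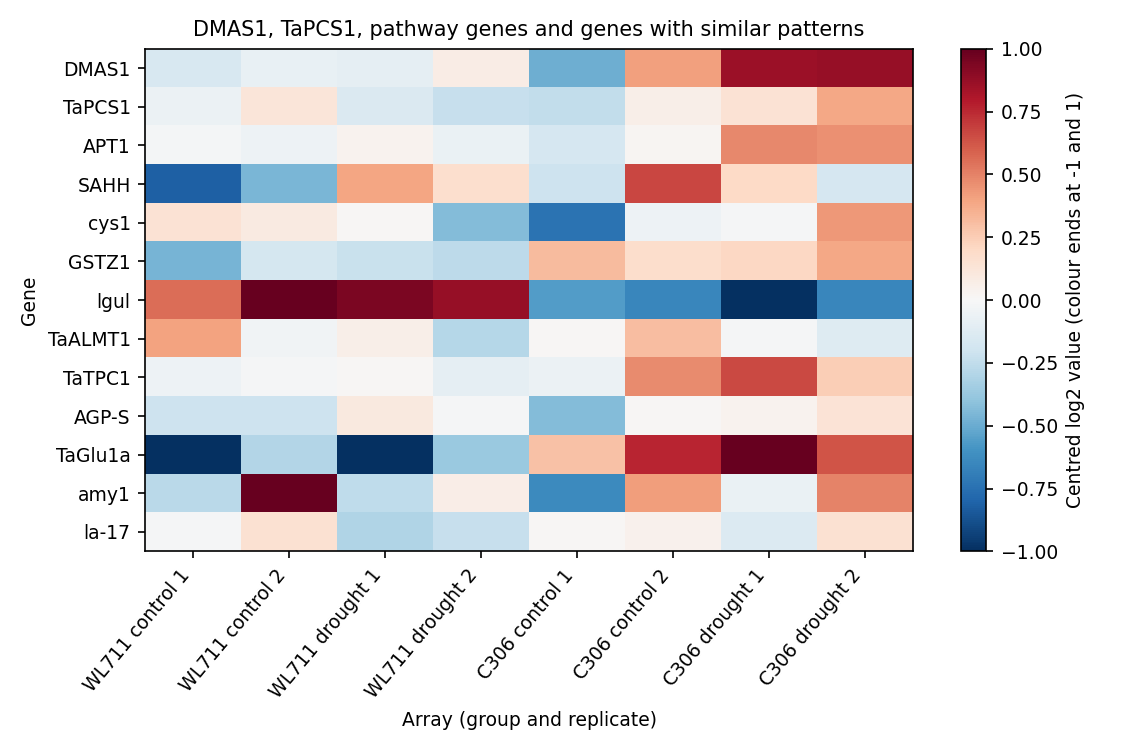
Centred log2 value (colour, ends at -1 and 1) of DMAS1, TaPCS1, the 6 genes of the context lists and the genes of most similar pattern (rows). Columns are the 8 arrays, with 1 probe set for each gene. DMAS1, TaPCS1 and APT1 are highest on both C306 drought arrays. The arrays split by cultivar on lgul, higher in WL711, and on GSTZ1 and TaGlu1a, higher in C306.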

How the data were processed

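Leaf RNA was hybridised to 8 Affymetrix arrays, 2 for each of 4 groups taken from the sample titles. The authors made the deposited log2 values with RMA, per the submitters' processing notes, with no version stated there. The deposited values had a median of 0 for every probe set (largest absolute median 5e-07), so they had been centred, which leaves differences between arrays as they were. The log base and the direction were not set against scanner values. The number of arrays limits the precision.

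Tests used limma 3.58.1 in R 4.3.3: lmFit over 4 group means on 61179 probe sets (111 control probe sets left out), 6 contrasts, and eBayes without trend. There were 4 residual and 4.63 prior degrees of freedom. The threshold was a two-sided adjusted p (Benjamini-Hochberg over all 61179) under 0.05. SE and 95% intervals are limma's, and SD is over 2 arrays. The script was tested on simulated data. Names came from the platform annotation (1273 probe sets with a gene) and from the IWGSC CS RefSeq v2.1 gene table, which has no description column. All probe sets of DMAS1 and TaPCS1 were named, up to 5 genes for each list, and the 5 named genes of highest Pearson's r with each plain probe set. For these genes 1 probe set stood for a gene (a plain _at first, then _a_at, _s_at and _x_at). The genes, lists and tests were chosen with earlier results of these data known.

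The alternatives were the replicate number as a block, a shift of each array to the same median, a second quantile normalization, robust eBayes, array weights, a block for low hybridisation controls (mean under -0.5), a fit without _x_at, _s_at and _a_at probe sets, a fit on the arrays compared, and each array left out in turn. The averaging of a gene's probe sets was added after seeing the data.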

Additional observations from a re-analysis of the deposited data

Results flagged for a closer look

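The drought and control arrays of TaPCS1 did not overlap in either cultivar and parted in opposite directions: both drought arrays lay above both control arrays in C306 and below them in WL711. Of all 61179 probe sets 3.21% showed this joint pattern. The changes were 0.36 (SE 0.17) in C306 and -0.22 (SE 0.17) in WL711. Their difference of 0.58 on the log2 scale (SE 0.24) did not pass the test of the difference (limma adjusted p = 0.481, and 0.373 to 0.871 over 15 alternatives).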

How the results depend on the processing

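Of 370 values for 24 results under the alternatives, 351 kept their direction and their side of the threshold. That count does not measure firmness, because several alternatives could change only the SE and adjusted p, not the estimate. These were the replicate block, robust eBayes, array weights, the fit without _x_at, _s_at and _a_at probe sets, and the fit on the arrays compared. Leaving out an array outside a comparison likewise kept its estimate. In drought plants, C306 minus WL711 on the plain DMAS1 probe set passed in 4 of 17 alternatives, at 0.867 in each: with array weights (limma adjusted p = 0.0397), with only the 4 arrays compared (0.0170) and without C306 control replicate 1 or 2 (0.0134 each). With single arrays left out it read 0.785 to 0.949. The same difference on the _x_at probe set of DMAS1 passed in 10 of 15 alternatives. With a block for low hybridisation controls the log2 difference was 0.985 and did not pass (limma adjusted p = 0.0542). With single arrays left out it read 0.780 to 1.088, and the call was lost when any of the 4 drought arrays was left out. With quantile normalization once more, the WL711 drought change of the _a_at probe set of DMAS1 turned to -0.033. With single arrays left out, 6 values near 0 changed sign: the WL711 drought change of the _x_at probe set of DMAS1 (-0.183 to 0.113) and of the _a_at probe set of DMAS1 (-0.166 to 0.292), the difference of drought effects of the _a_at probe set of DMAS1 (-0.050 to 0.408), the control difference between cultivars of the plain DMAS1 probe set (-0.371 to 0.532) and of TaPCS1 (-0.275 to 0.026), and the average drought change of TaPCS1 (-0.006 to 0.145). The C306 drought change of the plain DMAS1 probe set read 0.448 to 1.351. The cause of these changes was not tested beyond the arrays named. The replicate number did not pair the arrays (correlation of same-numbered deviations -0.093 to 0.112 over 6 pairs of groups); with it as a block, the _x_at probe set of DMAS1 gave adjusted p = 0.0295 in drought plants and no call for DMAS1 or TaPCS1 changed. Over the whole array the number passing ranged over the alternatives from 3 to 421 for drought in C306 (30 as reported), 0 to 81 in WL711 (22), 2 to 199 for the difference (25), 0 to 171 for the average (5), 2854 to 9509 between cultivars in control plants (6714) and 1626 to 7019 in drought plants (4120).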
